A study of Rattus norvegicus with 6 samples.

Results

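The genes described here belong to the homeobox, Sox, Fox, Tbx and Gata families of transcription factors that pattern the embryo. Members were chosen by name alone: every single gene symbol of the Pax, Lhx, Nkx, Hox, Sox, Fox, Pou, Dlx, Emx, Irx, Meis, Pitx, Tbx, Gata, Otx, Lmx or Rax families and of the family of Six4 and Six6, without Pax4, Pax6, Otx2 and Sox10. Each gene was represented by its brightest probe. This gave 90 members of 12167 genes, and Gata4, Hoxa11 and Pax8, which had the right names, carried no value on any array. A further 105 rat genes with such names in the RefSeq gene table were not analysed here.

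The samples were 2 arrays of pineal gland and 1 array each of subcommissural organ, subfornical organ, ependyma (lining of the third ventricle) and total brain. All came from adult male Sprague-Dawley rats described as normal. Each array of a ventricular structure held material pooled from 2, total brain was a pool of normal brains that served as reference, and the labels do not say whether both pineal gland arrays came from separate animals. The structures were cut out by laser, the ependyma away from both organs, and 3 ng of RNA was amplified in 2 rounds. Values are intensities on a linear scale with array medians between 1.04 and 1.07, so an intensity of 1.05, the pooled median of all probes, was used as the line between dim and measured. The lowest values, under 0.142, were raised to that floor before logs were taken. Marker genes followed the labels for the pineal gland and the ciliated linings, and no list used here marks either organ by itself. The 8 pinealocyte markers with values, of 9 listed, summed to 1816 and 1562 on the pineal gland arrays, against 6.31 to 10.2 on the others. The 13 motile cilia genes with values, of 26 listed, summed to 2194 in the subcommissural organ, 457 in the subfornical organ, 2509 in the ependyma and 27.4 and 27.3 in the pineal gland, against 132 in total brain.

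Homeodomain, HMG-box (Sox), forkhead (Fox), T-box (Tbx) and zinc finger (Gata) proteins bind DNA through short core motifs and set up regions and cell types in the embryo. Some stay on in adult brain, where Sox2 marks ependymal and stem-like cells, Lmx1a marks the roof plate and its derivatives, Six6 and Rax mark the hypothalamic floor and eye, and Emx2 marks the telencephalic midline. Nkx6-2 stays on in myelinating cells and Sox7, Sox17 and Sox18 in endothelium. Foxj1 drives the motile cilia programme and Hox genes give position to hindbrain and spinal cord.

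Promoters are shown for 4 members, picked without a ranking from those whose levels differed by structure in the results that follow. RefSeq promoters (GRCr8 build, 250 bases before to 50 bases after the gene's start) were matched for 57 of the 90 members. Capitals mark matches, on either strand, to 6 short motifs: the homeodomain core TAATTA, the Sox core AACAAT, the forkhead core GTAAACA, the Gata core AGATAA, the TATA box TATAAA and the CCAAT box CCAAT. Six6 lies at chr6:97370185-97370484 on the plus strand, Meis1 at chr14:97495034-97495333 on the minus strand, Sox2 at chr2:119464881-119465180 on the plus strand and Nkx6-2 at chr1:203813073-203813372 on the minus strand.
Six6: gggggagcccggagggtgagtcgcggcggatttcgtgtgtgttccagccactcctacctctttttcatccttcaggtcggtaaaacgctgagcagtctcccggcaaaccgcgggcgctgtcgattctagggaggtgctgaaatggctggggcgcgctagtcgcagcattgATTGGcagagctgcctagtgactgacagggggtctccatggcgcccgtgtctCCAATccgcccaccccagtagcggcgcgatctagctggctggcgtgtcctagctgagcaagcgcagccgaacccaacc
Meis1: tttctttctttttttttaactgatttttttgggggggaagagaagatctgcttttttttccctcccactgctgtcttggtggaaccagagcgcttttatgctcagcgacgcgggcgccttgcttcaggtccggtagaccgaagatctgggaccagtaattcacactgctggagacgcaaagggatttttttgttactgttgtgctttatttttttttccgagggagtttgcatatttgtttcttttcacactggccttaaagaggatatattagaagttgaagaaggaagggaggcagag
Sox2: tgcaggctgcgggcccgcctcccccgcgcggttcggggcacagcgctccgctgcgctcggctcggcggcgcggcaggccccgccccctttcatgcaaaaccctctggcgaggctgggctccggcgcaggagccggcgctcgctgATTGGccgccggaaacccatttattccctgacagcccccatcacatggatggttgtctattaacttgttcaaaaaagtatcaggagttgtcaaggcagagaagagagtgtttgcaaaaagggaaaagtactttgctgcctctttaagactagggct
Nkx6-2: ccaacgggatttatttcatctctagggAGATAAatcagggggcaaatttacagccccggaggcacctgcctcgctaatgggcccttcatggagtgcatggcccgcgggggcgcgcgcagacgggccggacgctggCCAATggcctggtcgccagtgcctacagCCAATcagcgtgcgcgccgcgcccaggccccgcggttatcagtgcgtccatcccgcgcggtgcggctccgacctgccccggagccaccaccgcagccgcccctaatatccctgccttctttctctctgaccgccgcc
The Six6 window holds a CCAAT box on each strand, beginning at -80 and -28 from the gene's start, the Sox2 window holds 1 beginning at -106, and the Nkx6-2 window holds CCAAT boxes at -115 and -87 and a Gata core at -223. The Meis1 window holds none of the 6 motifs. It has 9 CpG dinucleotides and 43.7% G and C, against 24 and 62.7% for Six6, 23 and 60.7% for Sox2 and 30 and 66.7% for Nkx6-2. Over the 57 member promoters the median was 20 CpG dinucleotides and 62% G and C, against 7 and 51.7% over all 33469 promoters of that length. A CCAAT box stood in 45.6% of member promoters and 37.5% of all. The AT-rich motifs stood in fewer member promoters: TATAAA in 8.77% against 14.2% of all, AACAAT in 7.02% against 11.7%, AGATAA in 3.51% against 11.6%, TAATTA in 1.75% against 5.36% and GTAAACA in 1.75% against 3.78%. A match is a run of letters and not a site of binding.

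Most of these genes were dim in adult tissue. In the pineal gland 29 and 31 of 90 members reached 1.05, against 30 in the subcommissural organ, 36 in the subfornical organ, 36 in the ependyma and 38 in total brain. As shares this was 32.2% to 42.2% of members, against 65.3% to 68.7% of all genes on the same arrays. On no array did 34 members (37.8%) reach that intensity, against 18.1% of all genes, and on every array 16 members did (17.8%), against 52.0%. The 16 included the forkhead genes Foxo1, Foxo3, Foxo4, Foxp1, Foxp4, Foxk2, Foxn3 and Foxa3. The limit of detection is unknown, so a dim probe does not show that a gene is off.

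On the probe used for each gene, the 34 members dim on all arrays were Dlx3, Foxd3, Foxd4, Foxe1, Foxe3, Foxj1, Gata5, Hoxa5, Hoxb4, Hoxb5, Hoxb13, Hoxc4, Hoxd8, Hoxd9, Hoxd13, Irx4, Irx5, Lhx3, Lhx5, Lmx1b, Meis2, Nkx2-3, Otx1, Pax1, Pitx3, Pou1f1, Pou3f4, Pou4f1, Pou4f2, Rax, Sox17, Tbx3, Tbx5 and Tbx18. Of these, Sox17 and Pou1f1 had another probe above 1.05, for Pou1f1 at 1.22 in the subcommissural organ. A further 15 members reached 1.05 on 1 array, 3 on 2 arrays, 10 on 3 arrays, 7 on 4 arrays and 5 on 5 arrays.

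**Figure D1:**
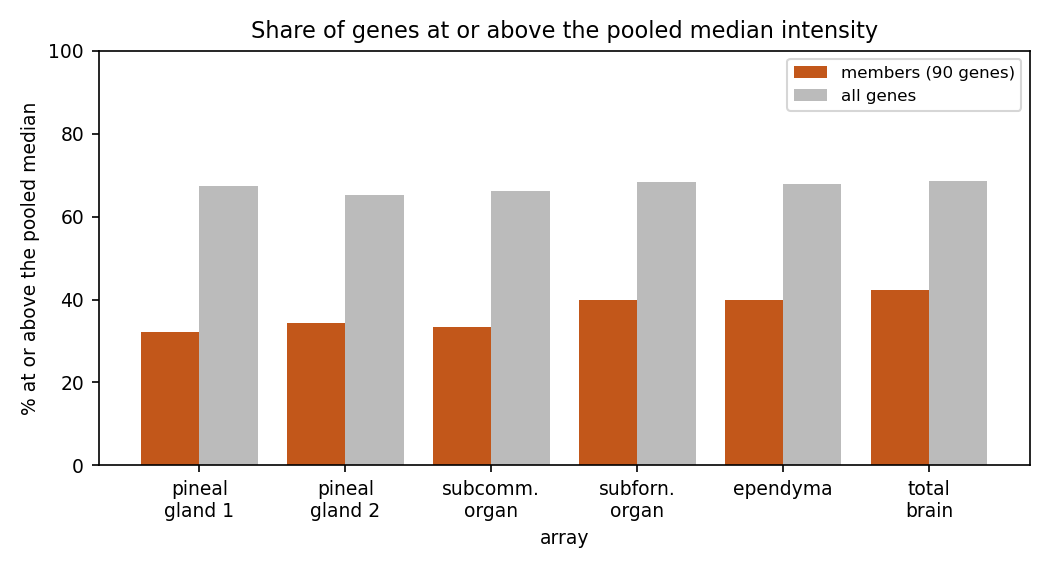
Percentage of members (orange, 90 genes) and of all genes (grey, 12167) at or above an intensity of 1.05 on each array. The member bars lie between 32.2% and 42.2% and the grey bars between 65.3% and 68.7%.

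Some families were mostly dim. Of 10 Hox genes, which hold position along the hindbrain and cord, only Hoxd1 and Hoxa2 reached 1.05, and both did so in total brain alone. Hoxd1 was at 0.446 and 0.194 in the pineal gland, 0.538 in the subcommissural organ, 0.782 in the subfornical organ and 0.104 in the ependyma, against 4.67 in total brain. Hoxa2 was between 0.429 and 1.05 in the dissected structures, against 1.31 in total brain, with the subfornical organ at 1.05 just under the line. Otx1, Rax and Lmx1b stayed under 1.05 on all 6 arrays. Rax, which is needed for eye and hypothalamus, was at 0.606 and 0.211 in the pineal gland, 0.550 in the subcommissural organ, 0.0611 in the subfornical organ and 0.167 in the ependyma, against 0.342 in total brain. Foxj1, the regulator of motile cilia, was at 0.164 and 0.374 in the pineal gland, 0.504 in the subcommissural organ, 0.0963 in the subfornical organ and 0.389 in the ependyma, against 0.245 in total brain. Its probe was therefore dim on the same arrays on which the cilia genes summed to 2194 and 2509. Pou4f1, a factor of the habenula next to the pineal gland, was between 0.122 and 0.617 on all arrays.

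**Figure D2:**
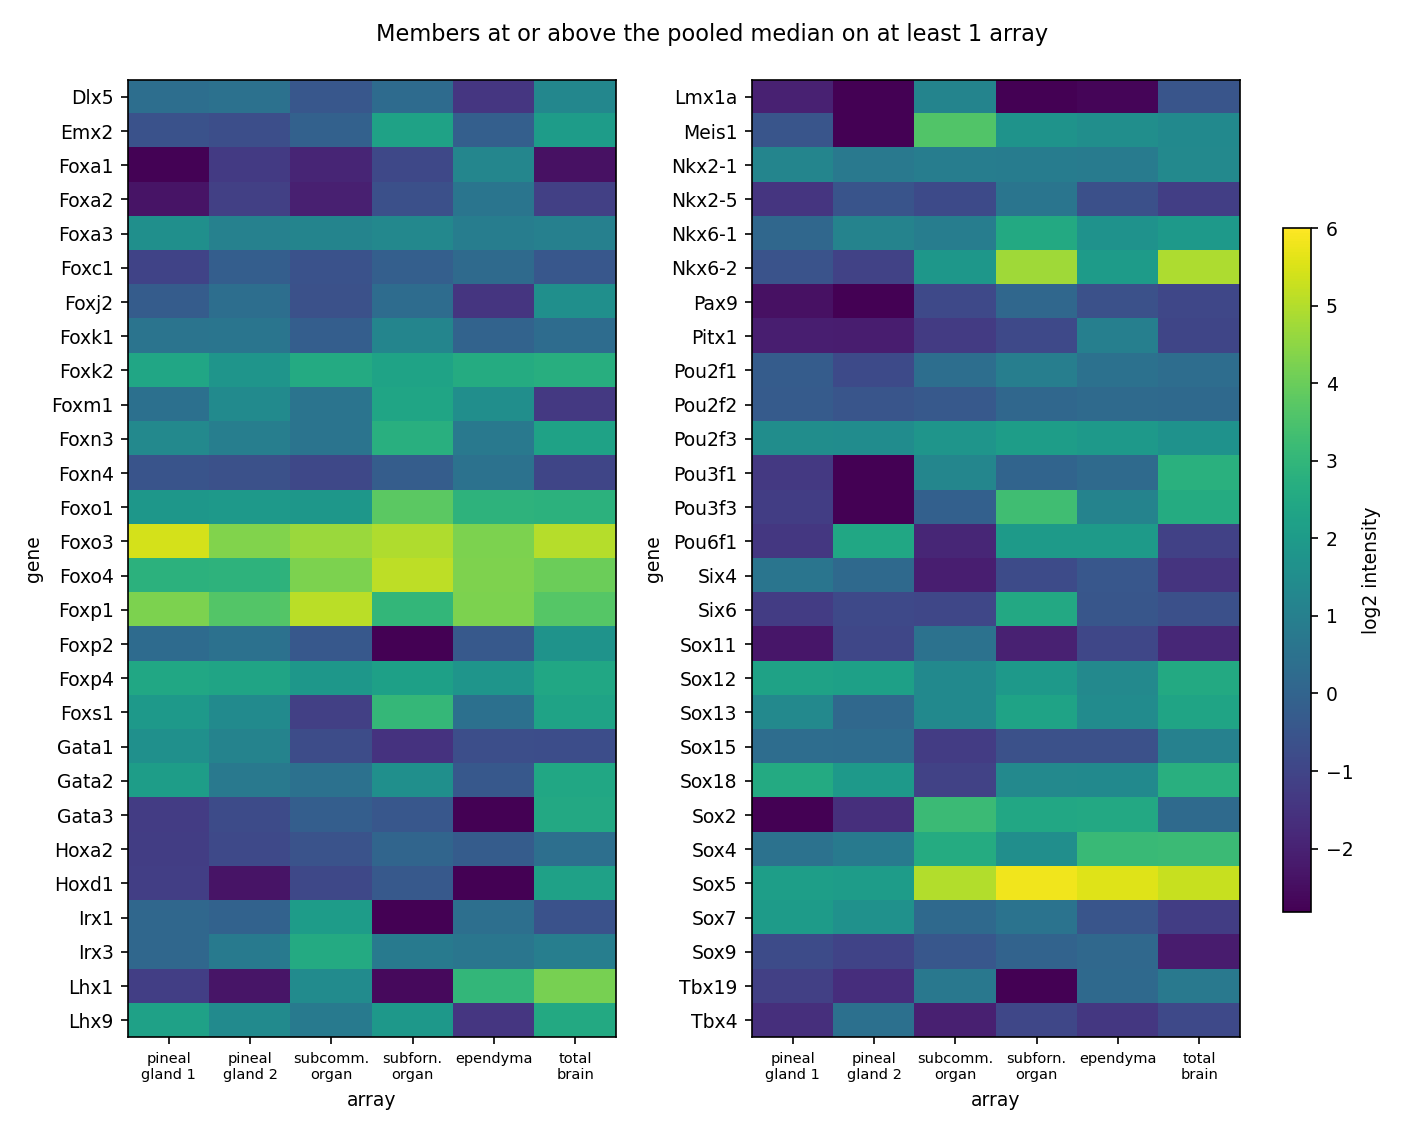
Log2 intensity of the 56 members that reached 1.05 on at least 1 array, by gene (rows, ordered by name) and array (columns). The Sox5 row is darker on both pineal gland arrays than on the other 4, and single bright cells mark Six6 in the subfornical organ and Gata3 and Hoxd1 in total brain.

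A single member marked a dissected structure, in the sense of lying at least 4-fold above the level in every other tissue with dim levels counted as 1.05. Six6, a homeobox factor of the eye field and hypothalamus, was at 5.70 in the subfornical organ, against 0.418 and 0.543 in the pineal gland, 0.519 in the subcommissural organ, 0.720 in the ependyma and 0.624 in total brain. All other arrays were dim, so the subfornical organ was at least 5.42-fold above each. Across all genes 62 of 12167 (0.51%) marked the subfornical organ by the same rule. The Six6 result rests on 1 probe and 1 array, without a replicate. Between the pineal gland pair Pou6f1 read 0.386 and 5.38, as wide a gap within the same tissue. With a filter at 6.04 in place of 1.05 no member marked a tissue. In bulk tissue more cells of a type and more RNA per cell cannot be told apart, here and in every comparison that follows. The 6 tanycyte and hypothalamic floor genes with values, of 8 listed and with Six6 among them, summed to 228 in the subfornical organ. The sums were 416 in the subcommissural organ and 343 in the ependyma. Most of each sum was Vim, so the sums do not show whether the list shares that peak. Rax, Nes, Vim, Crym and Col23a1, the others with values, each had their highest reading outside the subfornical organ. Eya2, which binds Six6 relatives and was the only 1 of 6 listed cofactors with a value, was at 112 in the subfornical organ, 77.7 and 57.0 in the pineal gland, 28.6 in the subcommissural organ and 73.6 in the ependyma, against 20.9 in total brain. No member marked the pineal gland, the subcommissural organ or the ependyma, which 0.74%, 0.436% and 0.345% of all genes did, so fewer than 1 of 90 would do so at those shares.

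Total brain was marked by Gata3 and Hoxd1, 2 of 90 members, as it was by 137 of 12167 genes (1.13%). Gata3, a zinc finger factor of midbrain and hindbrain neurons, was at 0.423 and 0.576 in the pineal gland, 0.880 in the subcommissural organ, 0.746 in the subfornical organ and at the floor in the ependyma, against 5.70 in total brain. It was thus at least 5.42-fold lower in each structure, and Hoxd1 at least 4.45-fold lower. After quantile normalization Gata3 and Six6 met the rule and Hoxd1 did not. Neuron markers, with values for 9 of 11 listed, summed to 135 and 88.1 in the pineal gland, 67.8 in the subcommissural organ, 84.0 in the subfornical organ and 157 in the ependyma, against 905 in total brain. Thy1 made up most of the total brain sum, at 509, and Slc17a6 most of both pineal gland sums, at 94.1 and 53.5. Slc17a7 was higher on both pineal gland arrays than in total brain. Snap25, dim on all arrays, was lower on the first and higher on the second. Thy1, Nefl, Nefm, Grin1, Slc17a6, Gad1 and Gad2 were lower on both. The part of neurons in the levels of Gata3 and Hoxd1 was not tested.

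**Figure D3:**
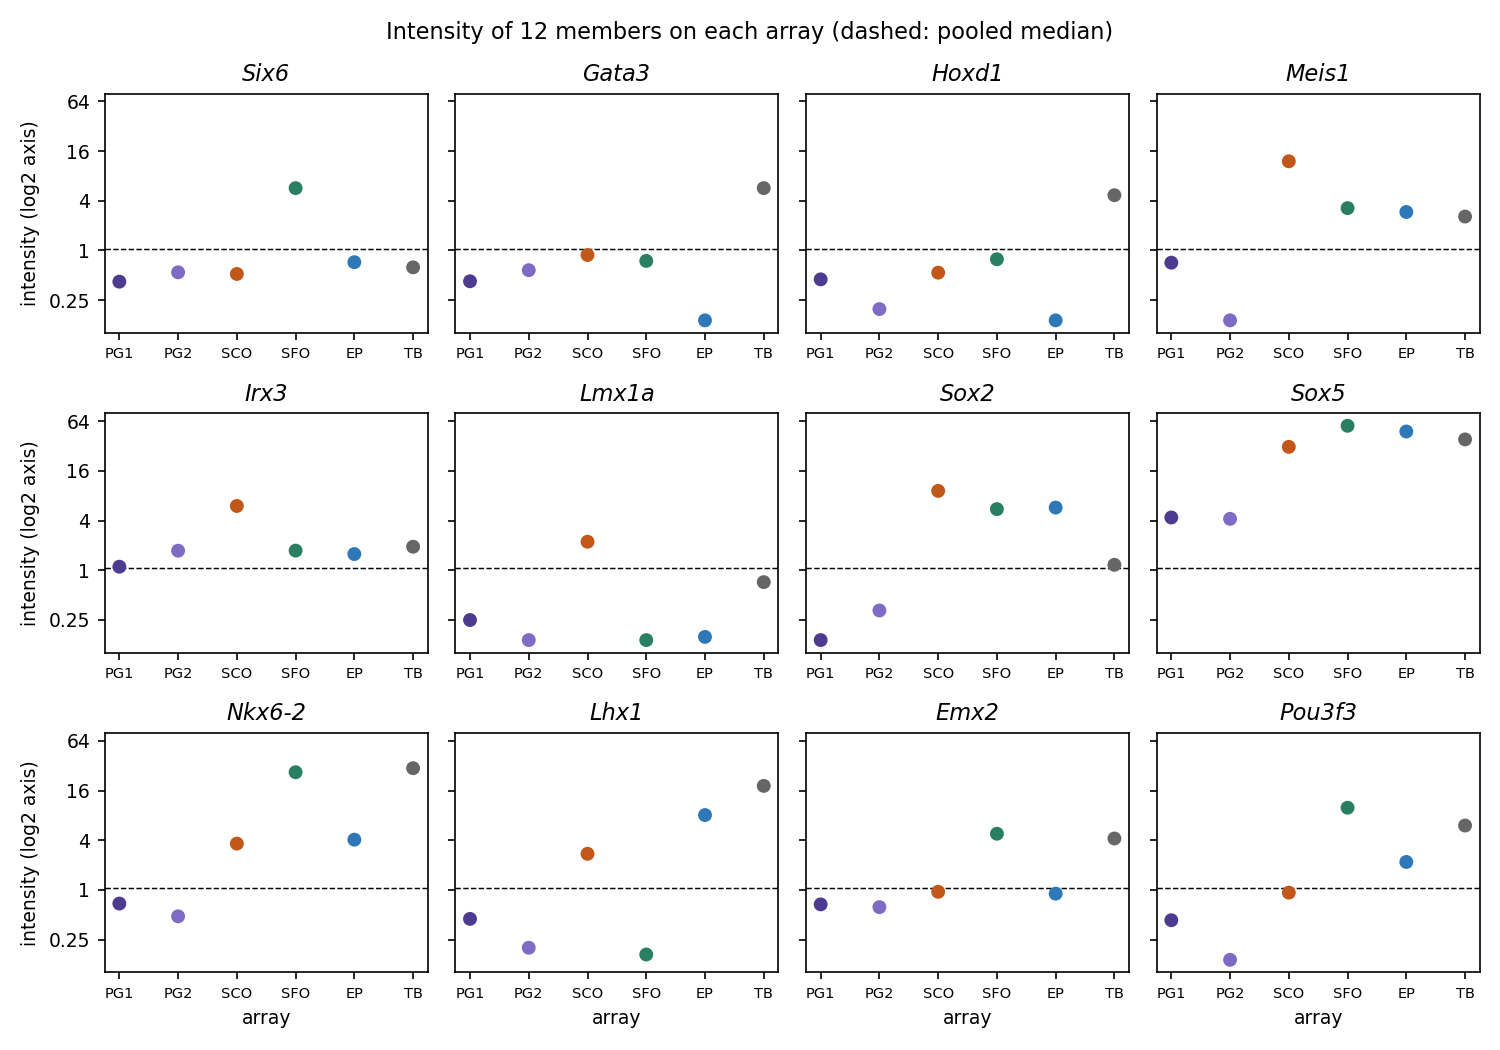
Intensity (log2 axis) of 12 members on each array: pineal gland (PG1, PG2), subcommissural organ (SCO), subfornical organ (SFO), ependyma (EP) and total brain (TB), with values under 0.142 drawn at 0.142. Six6 stands above the dashed pooled median of 1.05 only in the subfornical organ, and Sox2 is high in the 3 ventricular linings and under that line in the pineal gland.

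Against total brain, the pineal gland gave 16 calls among the members. By limma 4 of 43 measured members rose and 12 fell. By the sizes that can be given Nkx6-2, Lhx1 and Sox5 fell most, and Sox7, Foxm1, Gata1 and Six4 rose. Of all 9072 measured genes 23.8% passed, and 37.2% of measured members did. The same fit called 7.67% of genes higher and 16.1% lower. At 4-fold, without a test, 3 members were higher and 12 lower (34.9% of measured members, against 20.9% of all genes, of which 6.71% were higher and 14.2% lower). With dim values counted as 1.05, 8 members were 4-fold different (18.6% of measured members, against 15.4% of all genes), and all 8 were lower. The median difference was -0.89 on the log2 scale over measured members and -0.45 over all genes.

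These shares depend on the filter. Most members are dim, and a dim gene counted as measured only through the side on which it was bright, so it had to differ: 14 of the 16 limma calls, all but Sox4 and Sox5, had a dim lower side. Without the filter 15 of 90 members were 4-fold different (16.7%, against 16.5% of all genes) and 9 passed limma (10%, against 8.14%). The higher share of calls among measured members is therefore not a result about them. For a call with a dim side the size is given as a bound. The limma p-value beside it belongs to the full difference, in which dim readings were used down to the floor. It is no test of the bound. The spread in these tests came from the pineal gland pair alone and was taken to hold for every gene and for the single arrays, whose own spread is unknown.

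Lhx1, a LIM homeobox factor of Purkinje cells and hypothalamic neurons, was at 0.445 and 0.199 in the pineal gland, against 18.2 in total brain. It fell at least 17.4-fold (limma, adjusted p = 1.9e-14). Nkx6-2 was at 0.683 and 0.478, against 29.9, at least 28.5-fold lower (limma, adjusted p = 2.01e-13). On both pineal gland arrays these genes lay under the pooled median. Pou3f1 and Pou3f3, POU factors of glia and upper-layer neurons, stood at 0.394 and 0.0674 and at 0.429 and the floor in the pineal gland, against 6.83 and 6.03 in total brain. Both fell, at least 6.50-fold and 5.74-fold (limma, adjusted p = 7.14e-10 and 5.48e-09). Gata3, Hoxd1 and Emx2 fell too, by at least 5.42-fold, 4.45-fold and 3.997-fold (limma, adjusted p = 1.44e-05, 6.76e-07 and 0.00141).

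Sox factors moved both ways in the pineal gland. Sox5, an HMG-box factor without an activation domain of its own, was at 4.35 and 4.19 in the pineal gland, against 38.5 in total brain, 9.01-fold lower (limma, adjusted p = 0.000122). Sox4, a factor of immature neurons, was at 1.41 and 1.71, against 9.11, 5.87-fold lower (limma, adjusted p = 0.00293). Sox5 and Sox4 were above the dim line on both sides, so these folds are not bounds. Each rests on 1 probe, since the second Sox5 probe was at 0.612 or less and the second Sox4 probe at 0.583 or less on all arrays. Sox2 was at the floor and at 0.325 in the pineal gland, against 1.16 in total brain, a level so near the dim line that the bound is 1.10-fold (limma, adjusted p = 0.00498). Its size against total brain is thus not known, and without the first pineal gland array it was under 4-fold. Sox7, an endothelial factor, was at 4.09 and 3.12, against 0.431, which is a rise of at least 3.40-fold (limma, adjusted p = 0.000241). Its relative Sox18 was at 5.92 and 3.88, against 6.70, and its other relative Sox17 was dim on all arrays on its brightest probe by mean, while another Sox17 probe read 1.65 in the subfornical organ, 0.428 and 0.473 in the pineal gland, 0.543 in the subcommissural organ and 0.135 in the ependyma, against 1.30 in total brain. Endothelial markers, with values for 10 of 11 listed, summed to 84.0 and 85.7 in the pineal gland, against 295 in total brain. Cldn5 was the brightest of them in total brain and weighs most in that sum. Pecam1, Cldn5, Flt1, Tek, Tie1, Esam and Vwf were lower on both pineal gland arrays than in total brain. Emcn and Plvap were higher on both, as was Kdr, which was dim on each of these arrays. The part of vessels in the level of Sox7 was not tested.

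Gata1, a factor of the blood lineage, was at 3.08 and 2.20 in the pineal gland, against 0.601 in total brain, a rise of at least 2.48-fold (limma, adjusted p = 0.0182). A second Gata1 probe read 2.14 and 2.74, against 0.767. Neither probe passed 1.07 in any other structure. Six4, a homeobox factor of sensory placodes and muscle, was at 1.52 and 1.15, against 0.359, with a bound of 1.26-fold (limma, adjusted p = 0.0413). Foxm1, a forkhead factor of dividing cells, was at 1.36 and 2.66, against 0.392, with a bound of 1.81-fold (limma, adjusted p = 0.0097), but its other probe read 1.56 and 1.82, against 1.93. Foxm1 thus depended on the probe, as it also did in the ependyma, at 2.90 on the first and 1.96 on the other. Meis1, a partner of Hox proteins, was at 0.710 and the floor, against 2.58, with a bound of 2.45-fold (limma, adjusted p = 0.000282). Tbx19, a pituitary T-box factor, was at 0.451 and 0.319, against 1.66, with a bound of 1.58-fold (limma, adjusted p = 0.0171). Without the first array Gata1 was under 4-fold, and without the second Foxm1, Meis1 and Tbx19 were. After quantile normalization 10 of the 16 calls passed limma, and Foxm1, Meis1, Six4, Sox2, Sox4 and Tbx19 did not. Without the filter those members and Gata1 did not pass limma either. With the mean over probes Emx2, Foxm1, Sox2, Sox4 and Sox5 did not pass. Each has a second probe, as has Gata1, which passed.

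With 1 spread for every gene, the smallest log2 difference that passed was 1.82 against total brain and 1.85 against the ependyma. The log2 difference between the pineal gland pair had an SD of 0.97 over measured members and 0.77 over all genes. The shared spread may thus be too small for the members, and their p-values too small. The pair itself was at least 4-fold apart for 2 of 32 measured members (6.25%), against 2.86% of all genes. These were Pou6f1, at 0.386 and 5.38, and Tbx4, at 0.325 and 1.36. Pou6f1 differed more between both pineal gland arrays than the pineal gland mean differed from any single array, so no direction is given for it there. No p-value reaches beyond these arrays.

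Against the ependyma, a ciliated lining, 4 of 45 measured members rose in the pineal gland and 11 fell by limma (33.3%, against 20.2% of all genes, of which 7.25% were higher and 12.9% lower). At 4-fold 3 were higher and 11 lower (31.1%, against 18.1% of all genes). Counting dim values as 1.05, 4 were 4-fold different, all lower (8.89%, against 13.2% of all genes). Without the filter 16 of 90 were 4-fold different (17.8%, against 14.3%) and 5 passed limma (5.56%, against 5.95%), and 13 of the 15 limma calls had a dim lower side, Sox4 and Sox5 again being the exceptions. Both pineal gland comparisons share their arrays, as do all comparisons against total brain and all against the ependyma. Sox2 was at the floor and 0.325 in the pineal gland, against 5.74 in the ependyma, at least 5.46-fold lower (limma, adjusted p = 1.56e-09). Sox5 was 11.2-fold lower, against 48.0 in the ependyma (limma, adjusted p = 1.94e-05), and Sox4 5.79-fold lower, against 8.99 (limma, adjusted p = 0.00342). All 3 Sox factors were thus lower in the gland than in the lining. Lhx1 was at least 7.69-fold lower, against 8.08 (limma, adjusted p = 1.29e-09).

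Other members that fell against the ependyma were dim in the pineal gland and low in the ependyma. Foxa1 and Foxa2, pioneer forkhead factors of floor plate and gut, were at 2.34 and 1.53 in the ependyma and Pitx1, a pituitary factor, at 1.96. In the pineal gland all 3 were at 0.453 or less. They passed limma (adjusted p = 7.45e-05, 0.00739 and 0.00023), with bounds of only 2.22-fold, 1.46-fold and 1.87-fold. Meis1, Nkx6-2, Pou3f1 and Pou3f3 fell by at least 2.78-fold, 3.87-fold, 1.12-fold and 2.07-fold (limma, adjusted p = 0.000105, 0.00081, 0.00886 and 0.000147). Lhx9, a LIM factor of the developing thalamus and pineal, was at 4.71 and 2.63 in the pineal gland, against 0.370 in the ependyma, at least 3.35-fold higher (limma, adjusted p = 7.99e-05). Against total brain, at 5.84, Lhx9 did not pass (log2 difference -0.73). Sox7 rose by at least 3.40-fold and Gata1 by at least 2.48-fold (limma, adjusted p = 0.00864 and 0.0209). Dlx5, a factor of GABA neuron precursors, was at 1.29 and 1.40, against 0.370, with a bound of 1.28-fold (limma, adjusted p = 0.0479). Without the first pineal gland array Foxa2 and Gata1 were under 4-fold, and without the second Pou3f1 was. After quantile normalization Dlx5, Foxa1, Foxa2, Meis1, Pou3f1 and Pou3f3 did not pass limma, and with the mean over probes Lhx9 and Sox4 did not. Without the filter only Lhx1, Lhx9, Pitx1, Sox2 and Sox5 of the 15 calls passed limma.

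**Figure D4:**
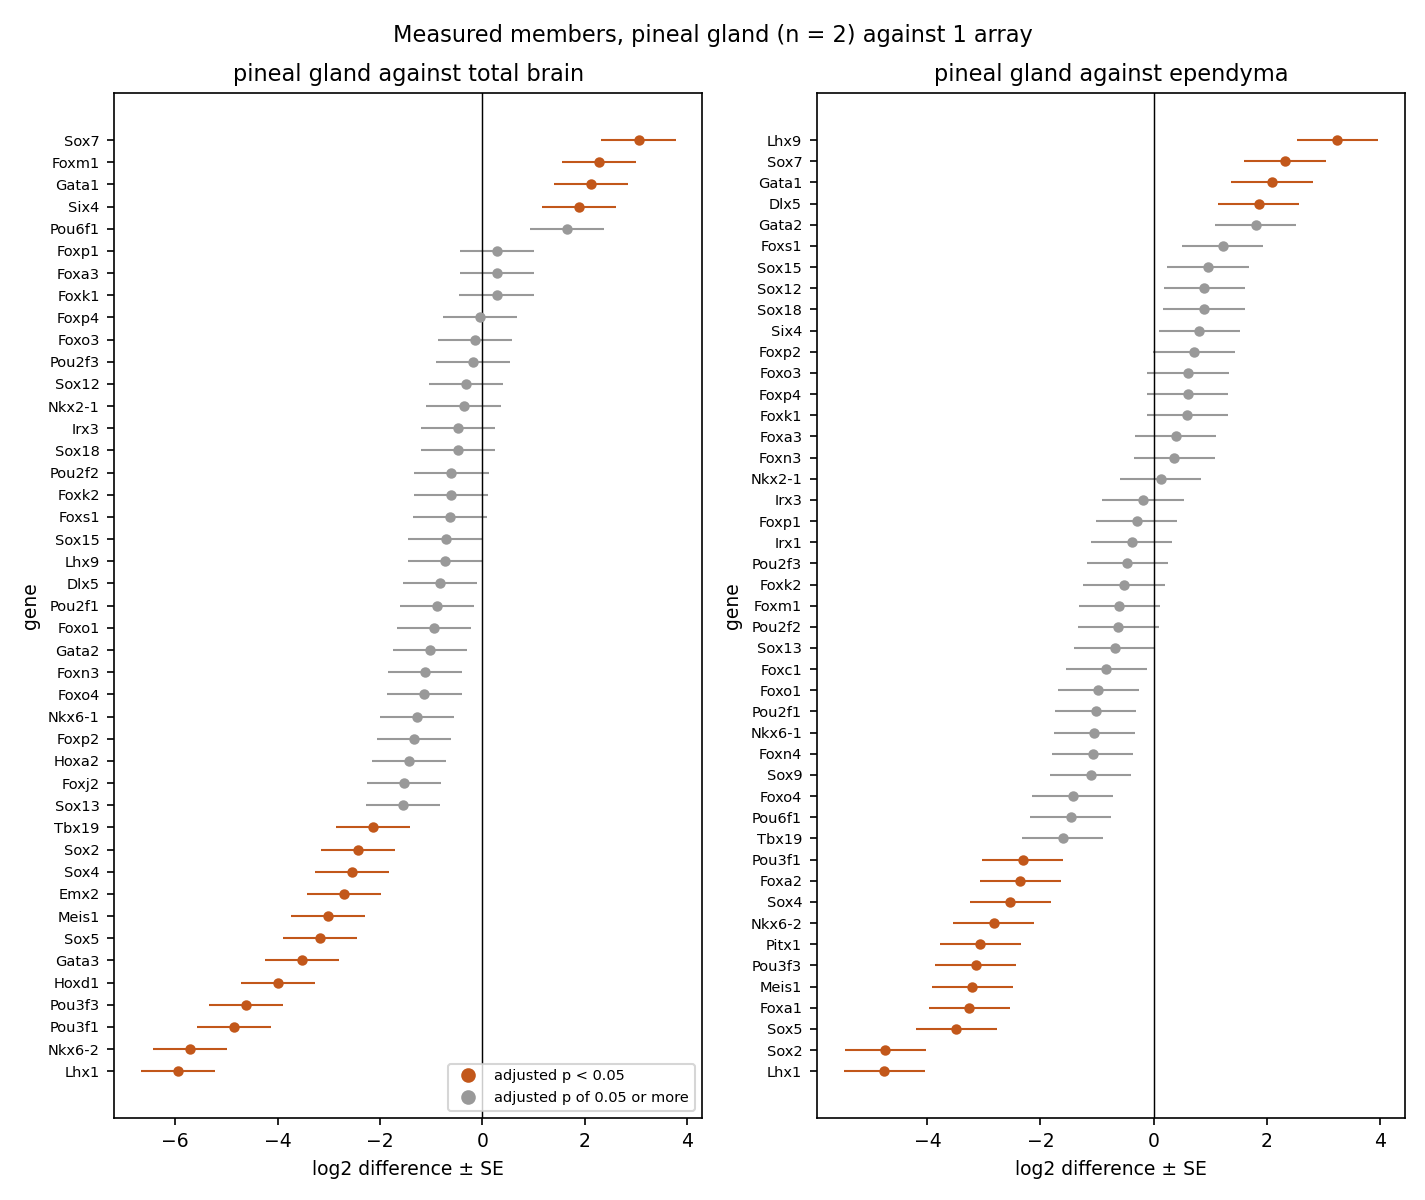
Log2 difference of each measured member, pineal gland (2 arrays) against total brain (left, 43 genes) and against ependyma (right, 45 genes), with the limma standard error of 0.72 as bars. Orange points have an adjusted p under 0.05: 4 higher and 12 lower on the left, 4 higher and 11 lower on the right.

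The remaining comparisons set a single array against a single array, so they carry no replicate check or p-value. The subcommissural organ, a gland of the ventricle's roof, had 4 of 43 measured members 4-fold above total brain and 11 below on the values as read (34.9%, against 23.5% of all genes, of which 8.62% were higher and 14.9% lower). With dim values counted as 1.05, 9 were 4-fold different (20.9%, against 17.5% of all genes), among them Sox2 and Meis1 of the higher ones. Without the filter 20 of 90 were (22.2%, against 19.6%). The 4 higher ones were Sox2, Meis1, Irx1 and Sox11. Sox2 was at 9.15 in the subcommissural organ, against 1.16 in total brain, 7.88-fold higher. Meis1 was at 12.1, against 2.58, 4.68-fold higher, and its level elsewhere was 0.710 and 0.0857 in the pineal gland, 3.26 in the subfornical organ and 2.92 in the ependyma. The subcommissural organ had the highest reading of both genes. A second Sox2 probe was dim on all arrays but the ependyma, at 1.44, and with the mean over both probes Sox2 was under 4-fold against total brain in the pineal gland, in both organs and in the ependyma. Astrocyte markers, which lie in cells that also use Sox2, had values for 8 of 8 listed and summed to 140 in the subcommissural organ, 876 in the subfornical organ, 599 in the ependyma and 112 and 56.2 in the pineal gland, against 516 in total brain, and their part in the level of Sox2 was not tested.

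Of 4 Iroquois homeobox genes, which divide the early neural tube, Irx1 and Irx3 also had their highest reading in the subcommissural organ. Irx1 was at 4.13 there, with 1.09 and 0.958 in the pineal gland, 0.116 in the subfornical organ and 1.33 in the ependyma, against 0.661 in total brain, which makes it higher by at least 3.93-fold. Irx3 was at 6.002, with 1.10 and 1.72 in the pineal gland, 1.73 in the subfornical organ and 1.57 in the ependyma, against 1.92 in total brain. Irx4 and Irx5 were under 1.05 on all arrays. The other Irx1 probe was dim on all arrays too, at 0.796 or less. Lmx1a, a LIM factor that specifies the roof plate, was at 2.21 in the subcommissural organ, with 0.248 and 0.0432 in the pineal gland, 0.0635 in the subfornical organ and 0.155 in the ependyma, against 0.716 in total brain. All other arrays were dim, which puts it at least 2.10-fold higher, and Lmx1b, its close relative, was at 0.515 or less on all. Sox11, a factor of immature neurons, was at 1.43 in the subcommissural organ, against 0.277 in total brain, and was under 1.05 on all other arrays.

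Members lower in the subcommissural organ than in total brain included Sox18, at 0.478 against 6.70, at least 6.38-fold lower. Foxs1, a forkhead factor of pericytes, was at 0.453 against 4.93, at least 4.69-fold lower. Endothelial markers summed to 69.5 in the subcommissural organ, against 295 in total brain, and mural cell and fibroblast markers, with values for 10 of 11 listed, to 42.2 against 115. Dcn made up most of the 42.2, at 23.2, and was above its total brain level of 8.52. Ogn, Acta2 and Lum were also higher but dim on both arrays. Pdgfrb, Rgs5, Tagln, Cspg4, Col1a1 and Col1a2 were lower, and Cspg4 was the largest in total brain, at 57.8. The part of vessels in the falls of Sox18 and Foxs1 was not tested. Nkx6-2 was 8.21-fold lower, at 3.64 against 29.9, and Lhx1 6.66-fold lower, at 2.74 against 18.2. Pou3f3, Gata3 and Hoxd1 were at least 5.74-fold, 5.42-fold and 4.45-fold lower. On the probe used for each, Foxp2, Foxj2, Sox15 and Emx2 lay between 0.416 and 0.947, against 2.06 to 4.20 in total brain. On those probes none of these 4 was as much as 4-fold lower once dim values were counted as 1.05. Another Foxj2 probe ran the other way, at 1.32 in the subcommissural organ, against 0.843 in total brain. A second Foxp2 probe was lower by more, at the floor in the subcommissural organ against 5.38 in total brain. With the mean over both Foxp2 probes the log2 difference was -3.67. On the probe used, Emx2 and Foxp2 were after quantile normalization under 4-fold also without that bound (log2 differences -1.87 and -1.88).

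The ependyma of the third ventricle was set against total brain in the same way, with 5 of 47 measured members higher and 10 lower at 4-fold on the values as read (31.9%, against 16.7% of all genes, of which 7.38% were higher and 9.34% lower). With dim values counted as 1.05, 7 were 4-fold different (14.9%, against 11.2% of all genes), and without the filter 18 of 90 were (20%, against 14.4%). Sox2 was at 5.74, against 1.16, 4.95-fold higher. Its relative Sox9, a factor of glia and ependyma, was at 1.13 in the ependyma, with 0.568 and 0.480 in the pineal gland, 0.741 in the subcommissural organ and 0.987 in the subfornical organ, against 0.228 in total brain. Sox9 reached the dim line in the ependyma alone, and its difference there is a bound of 1.07-fold. Foxa1 was at 2.34, against 0.187 in total brain, higher by at least 2.22-fold, and no other array passed 0.533. Foxa2 was at 1.53 in the ependyma, against 0.455 in total brain, and at 0.636 or less elsewhere. Pitx1 was at 1.96, against 0.503 in total brain, and at 0.543 or less elsewhere. Foxa1, Foxa2 and Pitx1 thus had their highest reading in the ependyma, each at a low level. Pou6f1 was at 3.98 in the ependyma and 3.93 in the subfornical organ, against 0.460 in total brain, and its pineal gland readings disagreed as given above.

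Of members lower in the ependyma, Nkx6-2 was 7.36-fold lower, at 4.06 against 29.9, and Pou3f1 5.81-fold lower, at 1.18 against 6.83. Lhx9, at 0.370 against 5.84, was at least 5.56-fold lower and Gata2, a factor of midbrain neurons and blood cells, at 0.757 against 5.35, at least 5.09-fold. The second probes of Lhx9 and Gata2 were dim on both arrays or close to it, at 1.03 and 0.291 in the ependyma, against 0.949 and 0.473 in total brain. Gata3 and Hoxd1 were at the floor in the ependyma. Dlx5, Foxj2, Foxp2 and Emx2 were at 0.900 or less in the ependyma, and none was 4-fold lower with dim values counted as 1.05. A second Foxp2 probe read 2.73 in the ependyma, against 5.38 in total brain. Lhx1 was at 8.08, against 18.2, under 4-fold, and the next highest dissected reading of Lhx1 was 2.74 in the subcommissural organ.

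The subfornical organ, a sensor of hormones in the blood, was set against total brain in the same way, with 4 of 44 measured members higher and 6 lower on the values as read (22.7%, against 16.8% of all genes, of which 7.19% were higher and 9.63% lower). With dim values counted as 1.05, 7 were 4-fold different (15.9%, against 11.4% of all genes), and without the filter 15 of 90 were (16.7%, against 14.7%). Six6 was at least 5.42-fold higher. Sox2 was at 5.50, against 1.16, 4.74-fold higher. Foxm1 was at 5.10, against 0.392, at least 4.86-fold higher, but its other probe was at 1.67, against 1.93. Lhx1 was at 0.165, against 18.2, at least 17.4-fold lower, and Pou3f1 at 1.01, against 6.83, at least 6.50-fold lower. Gata3, Hoxd1, Foxp2 and Tbx19 were lower by at least 5.42-fold, 4.45-fold, 3.11-fold and 1.58-fold. A second Foxp2 probe was lower too, at 0.216 in the subfornical organ, against 5.38 in total brain.

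Several factors stayed near the total brain level in the subfornical organ and were dim or low in the other structures. Nkx6-2 was at 26.7, against 29.9 in total brain. Emx2 was at 4.79, against 4.20, with 0.667 and 0.617 in the pineal gland, 0.947 in the subcommissural organ and 0.900 in the ependyma. Pou3f3 was at 9.91, against 6.03, with 0.926 in the subcommissural organ and 2.18 in the ependyma. These 3 genes had their highest 2 readings in the subfornical organ and total brain. Oligodendrocyte markers, with values for 9 of 10 listed, summed to 1761 in the subfornical organ, 70.8 and 69.9 in the pineal gland, 250 in the subcommissural organ and 325 in the ependyma, against 1597 in total brain. All 9 were above 1.05 in the subfornical organ and in total brain, against 4 on each pineal gland array, and the part of these cells in the level of Nkx6-2 was not tested. A second Emx2 probe was at 0.633 or less on all arrays and read 0.382 in the subfornical organ, so Emx2 rests on 1 probe.

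Both organs were also set against the ependyma, the ordinary lining of the ventricle. The subcommissural organ had 3 of 41 measured members 4-fold higher and 5 lower on the values as read (19.5%, against 12.8% of all genes, of which 4.91% were higher and 7.85% lower). Meis1 alone was, with dim values counted as 1.05, 4-fold different (2.44%, against 7.8% of all genes), and without the filter 16 of 90 were (17.8%, against 11.4%). Lmx1a was at least 2.10-fold higher, at 2.21 against 0.155, Lhx9 at least 1.69-fold, at 1.77 against 0.370, and Meis1 4.12-fold, at 12.1 against 2.92. Only for Meis1 were both sides above the dim line, and quantile normalization left it at a log2 difference of 1.95, under 4-fold. Sox18, at 0.478 against 2.59, Pou6f1, at 0.273 against 3.98, Foxa1, Foxa2 and Pitx1 were lower by at least 2.46-fold, 3.79-fold, 2.22-fold, 1.46-fold and 1.87-fold. Sox2, at 9.15 against 5.74, and Sox5, at 31.3 against 48.0, differed by less than 4-fold.

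The subfornical organ had 6 of 46 measured members 4-fold above the ependyma and 4 below on the values as read (21.7%, against 13.4% of all genes, of which 6.78% were higher and 6.61% lower). With dim values counted as 1.05, 6 were 4-fold different (13%, against 8.53% of all genes), and without the filter 14 of 90 were (15.6%, against 12.1%). Nkx6-2 was 6.57-fold higher, at 26.7 against 4.06, Foxs1 6.15-fold, at 8.38 against 1.36, and Pou3f3 4.55-fold, at 9.91 against 2.18. Six6, Emx2 and Lhx9 were higher by at least 5.42-fold, 4.56-fold and 3.52-fold. Mural cell and fibroblast markers summed to 125 in the subfornical organ, against 32.1 in the ependyma. Cspg4 was the largest of them on both arrays, at 44.7 against 14.8. All with values were higher in the subfornical organ but Rgs5, which was dim on both arrays. The part of these cells in the level of Foxs1 was not tested. Lhx1 was at least 7.69-fold lower, at 0.165 against 8.08. Foxa1, Irx1 and Tbx19 were lower by at least 2.22-fold, 1.27-fold and 1.10-fold. Lhx9 depended on the probe: its other probe read 0.232 in the subcommissural organ and 0.459 in the subfornical organ, against 1.03 in the ependyma. With the mean over both probes the log2 difference was 0.05 in the subcommissural organ and 1.08 in the subfornical organ, both under 4-fold.

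**Figure D5:**
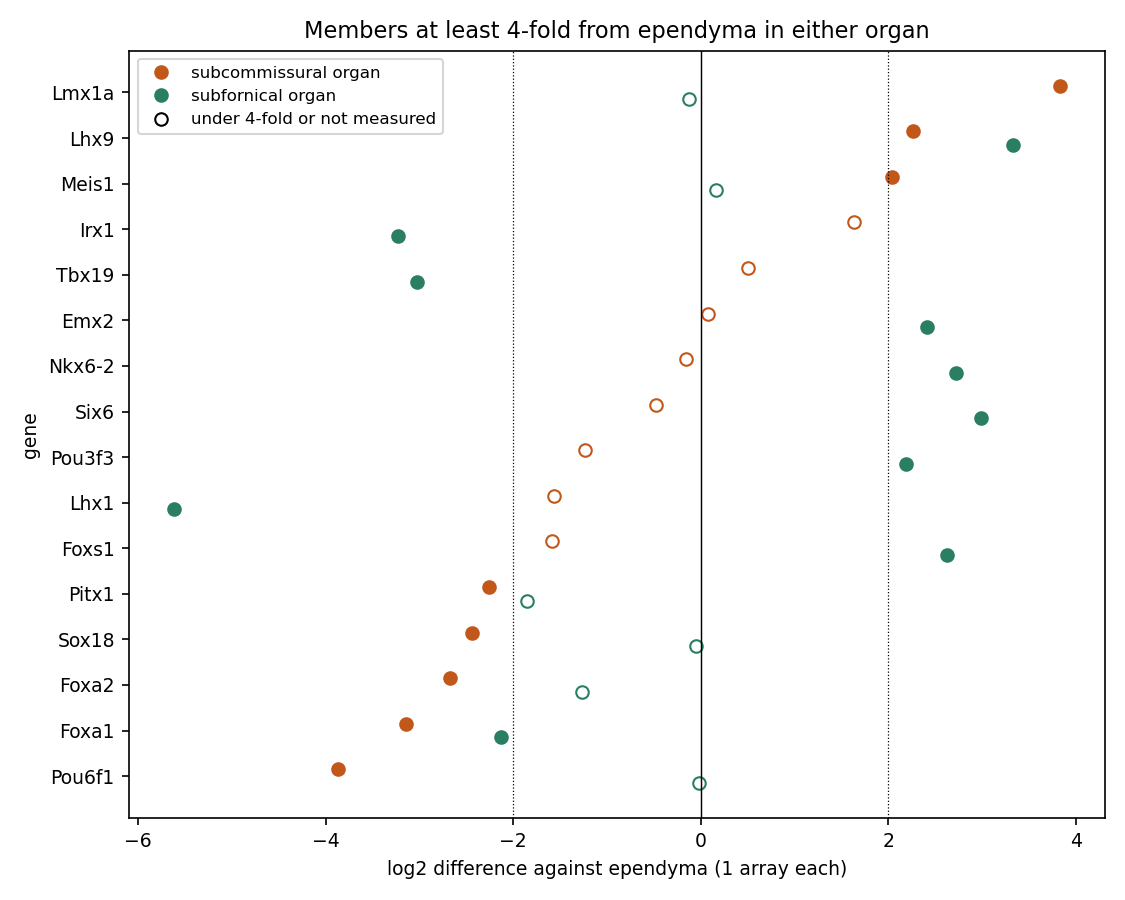
Log2 difference from the ependyma of the 16 members 4-fold different in either organ on the values as read, subcommissural organ in orange and subfornical organ in green, with 1 array each. Filled points lie beyond the dotted lines at 4-fold, and Lhx9 and Foxa1 are filled for both organs.

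Forkhead genes of the insulin and stress response were measured on all arrays. Foxo3 was at 43.2 and 20.0 in the pineal gland, 25.4 in the subcommissural organ, 31.0 in the subfornical organ and 19.2 in the ependyma, against 32.5 in total brain. Every other reading but that of the ependyma, just below, lay between both pineal gland arrays. Foxo1 was at 3.63 and 3.85 in the pineal gland, 3.64 in the subcommissural organ, 13.7 in the subfornical organ and 7.35 in the ependyma, against 7.22 in total brain. Foxo4 was at 7.27 and 7.38 in the pineal gland, 19.2 in the subcommissural organ, 35.1 in the subfornical organ and 19.8 in the ependyma, against 16.04 in total brain. Foxo1 and Foxo4 thus both had their highest reading in the subfornical organ, without a 4-fold difference in any of the 7 comparisons. The widest gap of Foxo4, between pineal gland and subfornical organ, is not among those 7. The other Foxo1 probes were at 0.895 or less and the other Foxo3 probes at 1.54 or less on all arrays, so both genes rest on 1 probe.

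Foxp1, a forkhead repressor of striatal and cortical neurons, was at 19.1 and 12.5 in the pineal gland, 33.9 in the subcommissural organ, 8.21 in the subfornical organ and 19.1 in the ependyma, against 12.6 in total brain. It was highest in the subcommissural organ and lowest in the subfornical organ, within 4-fold of ependyma and total brain in both. Foxp4 was between 3.44 and 5.46, Foxk2 between 3.43 and 6.50, and Sox12 between 2.52 and 5.87 on the 6 arrays. Nkx2-1, the hypothalamic and thyroid factor, was between 1.66 and 2.52, with the pineal gland readings of 2.29 and 1.66 on either side of all other dissected structures. Foxn3 had 4 probes, of which 2 gave the same order: 2.50 and 1.91 in the pineal gland, 1.48 in the subcommissural organ, 6.72 in the subfornical organ and 1.69 in the ependyma, against 4.76 in total brain on the first, and 3.996, 2.34, 0.570, 9.24 and 1.61, against 4.59, on the second. The remaining Foxn3 probes were dim, except 1 that read 2.11 in total brain.

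Partners of these factors were read from a list of 49 genes, of which 35 had values. Against total brain 3 of 31 measured partners rose in the pineal gland and 8 fell by limma, where 7.67% of all genes rose and 16.1% fell. Tle2, a Groucho corepressor, was at 21.4 and 24.9 in the pineal gland, against 0.335 in total brain, a rise of at least 21.9-fold (limma, adjusted p = 3.1e-15), and its level elsewhere was 1.98 in the subcommissural organ, 3.01 in the subfornical organ and 1.03 in the ependyma. Lmo1 and Lmo3, LIM-only proteins that bind the same Ldb cofactors as Lhx and Lmx factors, fell 15.4-fold and at least 25.5-fold (limma, adjusted p = 9.03e-07 and 9.53e-16). Lmo4 rose at least 4.15-fold (limma, adjusted p = 2.59e-06), with 2.38 and 7.99, against 0.314. Ldb1 itself was between 49.4 and 110.5 on all arrays. Pbx3 and Pbx4, homeobox partners of Hox and Meis proteins, fell 6.65-fold and at least 7.98-fold (limma, adjusted p = 0.00125 and 2.42e-11).

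In the subcommissural organ 4 of 29 measured partners stood above the ependyma at 4-fold, where 4.91% of all genes did. They were Lmo1, at 100.5 against 24.2, Pbx3, at 26.1 against 2.99, Tle4, at 82.5 against 17.3, and Ccno, at 18.2 against 3.72. Pbx3, which joins Meis1 on DNA, had the same direction as Meis1 there, but Pbx3 was highest in total brain, at 31.8, where Meis1 was at 2.58. The other Hox and Meis partners with values, Pbx2, Pbx4, Pknox1 and Pknox2, were within 4-fold of the ependyma. Rfx2, a cilia regulator that acts with Foxj1, was at 44.0 in the subcommissural organ, 44.7 in the ependyma, 22.0 in the subfornical organ and 1.41 and 0.360 in the pineal gland, against 6.98 in total brain. Unlike the dim Foxj1 probe, Rfx2 had the order of the cilia genes. Zfpm1, a cofactor of Gata proteins, was at 55.9 in the subcommissural organ, 43.9 in the ependyma, 26.3 in the subfornical organ and 6.36 and 6.04 in the pineal gland, against 10.5 in total brain. The stress kinase gene Sgk1, a regulator of FoxO proteins, was at 143 in the subfornical organ, against 15.4 in the ependyma, 9.32-fold higher.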

How the data were processed

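The values the authors deposited are intensities, linear and given once for each probe on each array. Per the labels' protocols, RNA (3 ng) went through 2 transcription rounds with biotin, and Cy5 is the label. The scanner, background correction and scaling are not given in the sources used here. Array medians of 1.04 to 1.07 show a common centre by an unstated method. Each column is the level of 1 sample, so direction is known, and the scale was read from the values.

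Values of -9999 were read as missing, which left 34963 of 35129 probes complete, and platform annotation gave a single symbol to 16865, several to 165 and none to 18099. The floor of 0.142 is the 5th percentile of all values, and log2 was taken above it. Each gene was its brightest probe by mean log2. Genes counted as measured where the brighter side was at 1.05 or more. A dim lower side was counted as 1.05 for folds, which are then written as at least so many fold. The limma tests used the log2 values without that bound. Pineal gland folds use the mean log2 of both arrays.

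The 4-fold counts involve no test, and both pineal gland arrays had to lie on 1 side. The pineal gland was also tested with limma 3.58.1 in R 4.3.3 (lmFit and eBayes, two-sided, Benjamini-Hochberg over all measured genes, adjusted p under 0.05). All 6 arrays entered the fit, the pineal gland pair alone gave the residual spread, and single arrays were assumed to vary like it. The fit was also run on simulated data that had 1 spread for every gene and array, so that run could not check this assumption. P-values set each difference against 1 spread, pooled over all measured genes from the pineal gland pair, and that spread may be technical. Precision is limited by the number of arrays.

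Named genes were the members called 4-fold (up to 10 in each direction per comparison), the 10 brightest members, members that mark a tissue, Six6, and members of a family described as a family. Other members were named after their values were seen. Members and lists were chosen with earlier results of these data known. The planned protein sequences were not used here. Alternatives were another floor, other filters, quantile normalization, the mean over probes, 2-fold, and leaving out each pineal gland array.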

Additional observations from a re-analysis of the deposited data

How the results depend on the processing

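With the stricter filter at the 75th percentile of 6.04, the counts at 4-fold against total brain were 5 (pineal gland), 5 (subcommissural organ), 2 (subfornical organ) and 2 (ependyma), and against the ependyma 3, 1 and 4, since few members are that bright. By limma it left 5 against total brain and 3 against the ependyma. Without a filter limma called 9 and 5, and after quantile normalization 10 and 9. At 2-fold the counts were 24, 26, 18 and 26 against total brain and 23, 17 and 21 against the ependyma. Without a filter the subcommissural organ had 16 against the ependyma, and with the mean over probes the ependyma had 8 against total brain. Without 1 pineal gland array the counts were 13 to 15 against total brain and 12 to 15 against the ependyma. Members that mark a tissue numbered 14 at 2-fold and 0 with the stricter filter, 3 without either pineal gland array, and members differing between the pineal gland arrays 6 and 0. Under the floor, filter, normalization and probe alternatives Lhx1 passed limma in both comparisons, and apart from the stricter filter 7 of 16 calls against total brain and 4 of 15 against the ependyma always passed. Leaving out a pineal gland array leaves no spread, so limma was not run there. All 316 recomputed differences of named members kept their side, 255 of them within 0.54 on the log2 scale. The kept side is no check on direction, since each difference had been called 4-fold on these same arrays. A higher floor or leaving out a pineal gland array could not have reversed a call. Quantile normalization put the median of all genes at 0.03 for the pineal gland against total brain, where it was -0.45. The floor at the 1st percentile was not run because that value is below 0, and the 10th percentile, chosen after seeing the data, took its place. No paired analysis was possible because the labels number only the pineal gland arrays, and no groups compared share as many as 2 replicate numbers. The detection limit of these arrays is unknown, which limits every statement on dim members.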

Other observations

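Some values belong to no comparison above. Foxc1, a factor of meninges and vessels, had 3 probes, of which 1 read 1.29 and 1.08 in the pineal gland and 0.976 in the subcommissural organ, against 0.265 in the subfornical organ, 0.422 in the ependyma and 0.210 in total brain, while the brightest probe read highest in the ependyma, at 1.17. Nkx6-1, a ventral patterning factor, was at 1.09 and 2.20 in the pineal gland, 1.91 in the subcommissural organ, 5.80 in the subfornical organ and 3.21 in the ependyma, against 3.76 in total brain. Nkx2-5, known from heart, was at 1.54 in the subfornical organ and at 0.700 or less on all other arrays. Each was named after its values were seen.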
